A study of Mus musculus with 12 samples.

Results

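The genes described here are the 44 mouse genes that encode collagen chains, found as every protein-coding gene whose symbol is Col, a number, the letter a and a number with nothing more. They were matched by Entrez ID to the deposited count tables, which hold 27179 gene IDs, 20979 of them protein-coding. By the textbook architecture of the protein, 11 of the genes were placed in the fibrillar class, 6 in the basement membrane class (type IV), 6 in the beaded filament class (type VI) and 21 in the remaining class, which gathers network-forming, fibril-associated, transmembrane, multiplexin and anchoring collagens and 2 genes placed in no subclass, Col26a1 and Col28a1.

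Collagens are secreted proteins in which 3 chains wind into a rope-like helix, and this winding requires a glycine at the start of every unit of 3 residues. Fibrillar chains form the tensile fibrils of connective tissue, type IV chains form the sheet under epithelia and around vessels, and type VI chains form fine beaded filaments near the cell surface. Fibroblasts are the main makers of fibrillar collagen. In some collagens built from different chains, a chain is secreted efficiently only when its partner chains are made with it.

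PolyA RNA was measured from NIH3T3 cells, an immortalized line of mouse embryonic fibroblasts, in the derivative RelA-/- Rela-DsRed. These cells lack endogenous RelA, the p65 subunit of NF-κB, and carry RelA fused to the red fluorescent protein DsRed. They were exposed to 0.2 ng/mL IL-1b for 2 h in microfluidic devices after at most 20 passages. The series lists 12 samples in 4 groups of 3, but the tables of the 9 samples labelled LPS, PAM or media were byte for byte the table of IL-1 replicate 3, so only the 3 IL-1 libraries were used and no stimulus was compared with another or with media. The levels below describe cells after IL-1, and whether IL-1 changed a collagen gene was not tested. Nothing in the labels tells if replicates 1 to 3 were separate cultures, so their spread may be technical.

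The libraries held 17254518, 18091073 and 18578859 counts. Levels are given as CPM, counts per 1000000 counts of the library, as the mean ± SD over the 3 libraries, and detection here means at least 1 CPM in every library. Levels of different genes are compared per kb of merged exons, because longer transcripts give more reads. All 6 fibroblast markers were detected, against 51.1% of all protein-coding genes. Their summed level was 4449 to 4846 CPM, most of it from the intermediate filament gene Vim (3162 ± 76.6 CPM) and S100a4 (1388 ± 154 CPM). Pdgfra was at 95.7 ± 3.54, Pdgfrb at 47.0 ± 6.86, Thy1 at 10.2 ± 0.644 and Postn at 9.32 ± 3.98 CPM. Of 6 chondrocyte markers only Sox9 was detected, Matn1 and Hapln1 had no count and the list summed to 39.9 to 43.5 CPM; of 5 osteoblast markers only Runx2 was, Ibsp had no count and the sum was 42.0 to 46.6 CPM. None of 6 epithelial markers was detected, with Krt5 and Krt18 at no count and a sum of 0.580 to 0.663 CPM. Egfl7 alone of 5 endothelial markers was detected, with a sum of 13.6 to 15.2 CPM, and 3 of 5 macrophage markers were (Lyz2, Cd68 and Csf1r), with a sum of 10.6 to 17.5 CPM. Lyz2 stood at 9.69 ± 2.70 CPM, near the levels of Thy1 and Postn.

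The glycine repeat is visible in the coding exons. In fibrillar genes the recurring exon is 54 bases long, which is 6 repeat units of 9 bases, each opened by a glycine codon. For the 5 most abundant fibrillar genes, the first such exon that lies in frame with the repeat is shown with every in-frame glycine codon in capitals (GENCODE M21, GRCm38, coding strand, 5′ to 3′). They are coding exon 8 of Col1a1 (chr11:94939904-94939957, plus strand), coding exon 8 of Col1a2 (chr6:4515481-4515534, plus), coding exon 6 of Col3a1 (chr1:45325360-45325413, plus), coding exon 15 of Col5a1 (chr2:27965251-27965304, plus) and coding exon 6 of Col5a2 (chr1:45434892-45434945, minus).
Col1a1: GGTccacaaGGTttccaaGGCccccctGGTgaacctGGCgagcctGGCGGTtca
Col1a2: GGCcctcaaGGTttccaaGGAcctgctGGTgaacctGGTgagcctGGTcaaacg
Col3a1: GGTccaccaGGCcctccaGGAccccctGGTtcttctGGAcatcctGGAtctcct
Col5a1: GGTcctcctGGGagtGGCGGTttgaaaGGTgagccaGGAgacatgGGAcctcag
Col5a2: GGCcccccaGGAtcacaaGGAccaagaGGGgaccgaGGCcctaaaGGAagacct
Each exon opens on a glycine codon and holds 6 unbroken units, because only such exons were eligible to be shown. Col1a1 and Col5a1 carry a further glycine codon inside a unit, which gives them 7.

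Type VI genes use a 63-base exon of 7 units instead. Shown are coding exon 15 of Col6a1 (chr10:76717795-76717857, minus strand), coding exon 11 of Col6a2 (chr10:76610160-76610222, minus) and coding exon 17 of Col6a3 (chr1:90793014-90793076, minus). They are the first exons of that length that lie in frame and hold an unbroken repeat.
Col6a1: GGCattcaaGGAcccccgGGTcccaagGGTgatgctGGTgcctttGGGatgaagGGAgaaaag
Col6a2: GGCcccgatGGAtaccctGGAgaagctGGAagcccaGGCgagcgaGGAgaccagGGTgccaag
Col6a3: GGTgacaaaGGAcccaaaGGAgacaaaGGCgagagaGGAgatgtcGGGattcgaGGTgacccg
In type IV genes the repeat is broken at many places, and the exons shown were chosen because they hold a break. The examples of the classes were thus picked by different rules, so the classes are compared over whole genes below. Coding exon 9 of Col4a1 (chr8:11244486-11244569, minus strand, 84 bases) shows such breaks as wider gaps between the capitals. Coding exon 18 of Col4a2 (chr8:11415364-11415474, plus strand, 111 bases) has a single wider gap near its 3′ end.
Col4a1: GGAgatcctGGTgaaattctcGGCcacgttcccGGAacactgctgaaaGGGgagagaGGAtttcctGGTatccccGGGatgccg
Col4a2: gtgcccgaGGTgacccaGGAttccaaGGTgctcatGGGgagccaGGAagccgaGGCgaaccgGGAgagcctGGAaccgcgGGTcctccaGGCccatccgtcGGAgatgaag

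Over whole genes, the 11 fibrillar members had 21 to 33 coding exons of exactly 54 bases each, a median of 46.3% of their coding exons and at least 41.2%. The 6 type IV members had 1 to 3 such exons and the 6 type VI members 2 or 3, but 7 or 8 of 63 bases. The longest unbroken run of repeat units was 216 to 344 in fibrillar genes, 39 to 66 in type IV genes and 37 to 87 in type VI genes. Type IV coding sequence was nonetheless rich in the repeat, which took 74.9% to 78.8% of it when runs of at least 5 units were counted, split into 22 to 27 runs. In fibrillar genes it took 53.5% to 77.2%, and in type VI genes 11.7% to 31.9%. Col8a1, Col8a2 and Col10a1, the network-forming members, differed from all of these with only 2 coding exons each and none of 54 bases. Outside the fibrillar class, Col22a1, Col9a2 and Col9a3 had 44.4%, 43.8% and 43.8% of coding exons at 54 bases, within the fibrillar range. Their longest run was 113 units in each, below all fibrillar genes. Fibrillar genes on either side of the detection level overlapped in these features: the 8 detected ones had longest runs of 217 to 344 units and the 3 others 216 to 339.

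**Figure D1:**
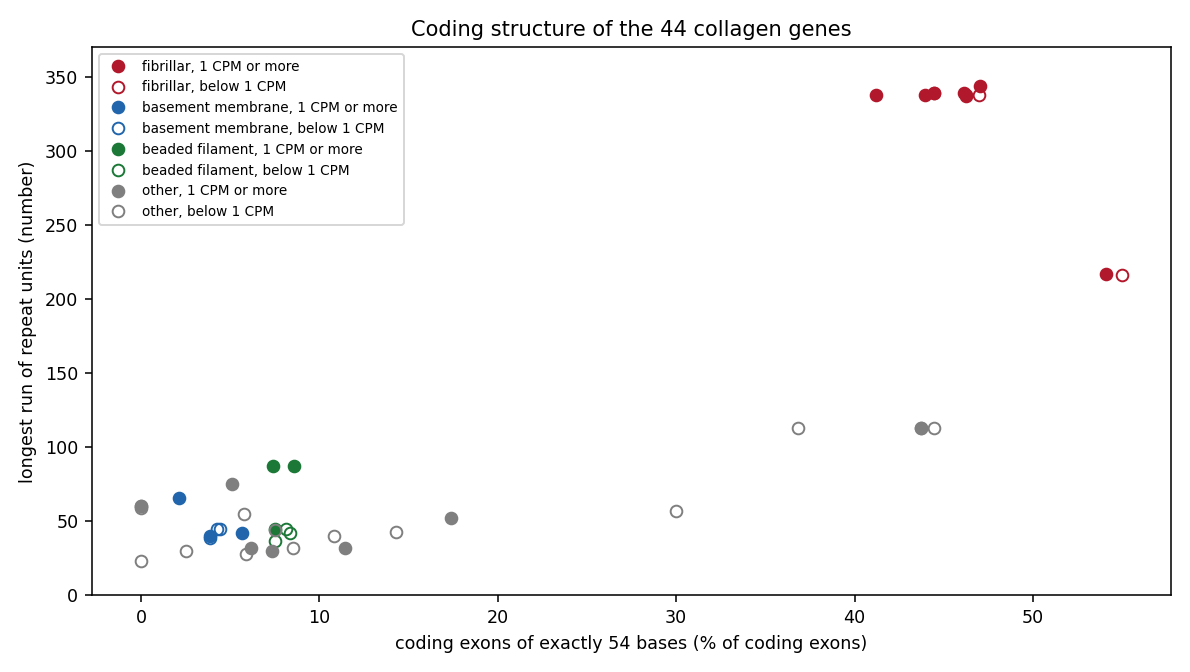
Share of coding exons of exactly 54 bases (x axis, percent of coding exons) against the longest unbroken run of repeat units (y axis, number) for the 44 collagen genes, 1 point per gene, coloured by class, filled at 1 CPM or more in each IL-1 library and open below it. Fibrillar genes lie at 41.2% or more and at runs of 216 or more, and of the 3 open fibrillar symbols, Col24a1 lies just beyond the 8 filled ones on both axes.

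Collagen transcripts came mainly from the fibrillar class. Of the 44 genes, 21 were detected, against 51.1% of all protein-coding genes. The collagen count is thus close to the share among protein-coding genes, and the levels of the detected genes ran from 1.68 CPM (Col20a1) to 1154 CPM (Col1a2). Together the 44 genes had 4018, 3769 and 3912 CPM in replicates 1 to 3, or 0.390% ± 0.0125 of all counts. Fibrillar genes took 62.3% ± 0.394 of the collagen CPM, beaded filament genes 22.6% ± 0.513, basement membrane genes 8.26% ± 0.254 and the remaining class 6.78% ± 0.0807. Per kb of merged exons the shares were 54.3% ± 0.487, 29.0% ± 0.691, 9.43% ± 0.214 and 7.22% ± 0.0415. The order of the classes was the same in all 3 libraries on both scales, and the ranges of neighbouring classes did not overlap. Per kb of the longest transcript, however, the basement membrane and remaining classes were nearly equal, with mean shares of 6.97% and 6.92%. The order of these lowest classes is therefore not settled. In bulk RNA, fewer cells that express a gene and less of its RNA per cell cannot be told apart.

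**Figure D2:**
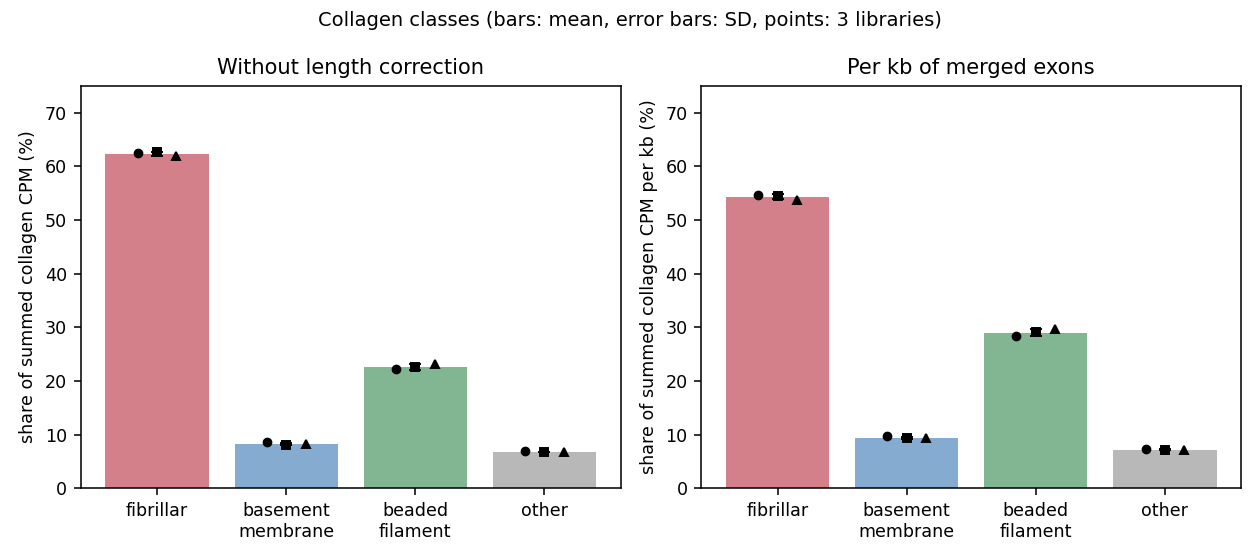
Share of each class in the summed level of the 44 collagen genes, as percent of collagen CPM (left) and of collagen CPM per kb of merged exons (right). Bars are means, error bars the SD and symbols the 3 IL-1 libraries (circle, replicate 1; square, replicate 2; triangle, replicate 3); the fibrillar class holds 62.3% on the left and 54.3% on the right.

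Per kb of merged exons, the order of the 10 highest collagen genes was Col1a1, Col1a2, Col6a1, Col6a2, Col5a2, Col4a1, Col5a1, Col8a1, Col3a1 and Col4a2, with means of 109 down to 13.5 CPM per kb. In it, Col5a2 and Col4a1 did not differ beyond their spread between libraries, nor did Col8a1 differ from Col5a1 or Col3a1. Per kb of the longest transcript the same 10 genes led, with Col1a2 and Col6a2 ahead of Col1a1 and Col6a1 and Col3a1 up to rank 6.

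Type I collagen, the main protein of tendon, skin and bone, dominated the fibrillar class. Col1a2 (Entrez 12843, chr6:4505618-4541543 in RefSeq GRCm38.p6), which encodes its α2 chain, had 1161, 1158 and 1143 CPM in replicates 1 to 3, a mean of 1154 ± 9.66 CPM. Col1a1 (Entrez 12842, chr11:94936224-94953042), which encodes the α1 chain, had 789.7, 633 and 719.7 CPM, a mean of 714 ± 78.3 CPM. Col1a2 was thus steady and ranked 69 of the 20979 protein-coding genes by CPM, while Col1a1 was lowest in replicate 2 and ranked 145. Per kb of merged exons the ranks were lower, 492 for Col1a1 and 602 for Col1a2 of the 20446 protein-coding genes with a known length. The spread of Col1a1 was 10.97% of its mean where counting alone gives 0.883%. That of Col1a2 was 0.838% against 0.694% from counting, or 1.88% when the libraries were scaled with TMM factors. Col1a2 took 29.6% and Col1a1 18.3% of all collagen CPM.

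Most type I molecules hold more α1 than α2 chains. Per kb of merged exons, Col1a1 was at 109 ± 11.9 and Col1a2 at 92.8 ± 0.778, a ratio of 1.17 ± 0.128. That ratio rests on the length used, since the merged exons of Col1a2 span 12426 bases and its longest transcript 5348, against 6563 and 5930 bases for Col1a1. Per kb of the longest transcript the ratio was 0.558 ± 0.0608, and without any correction 0.619 ± 0.0674. Which of the chains had more transcripts per length therefore cannot be settled from these counts.

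The chains of types III and V, which assemble with type I into mixed fibrils, came next. Col5a2 (chr1:45374331-45503282) had 216, 221 and 214 CPM (217 ± 3.63), Col3a1 (chr1:45311538-45349706) had 156, 167 and 158 CPM (161 ± 6.11) and Col5a1 (chr2:27886381-28039510) had 155, 151 and 155 CPM (154 ± 2.27). Type V chains sit in the core of the fibril and limit its width. All 3 genes varied little, and Col5a2 was above Col3a1 in every library. Per kb of merged exons they stood at 22.6 ± 0.379 (Col5a2), 18.1 ± 0.268 (Col5a1) and 16.4 ± 0.623 (Col3a1). Per kb of merged exons, Col1a1 was 6.68 ± 0.969 times and Col1a2 5.68 ± 0.213 times Col3a1. Per kb of the longest transcript, Col1a1 was 4.19 ± 0.608 times and Col1a2 7.49 ± 0.280 times Col3a1, so both chains exceeded Col3a1 with either length but the size and order of the excess turned on it. Per kb of the longest transcript Col3a1 was above Col5a1, at rank 6 against rank 9 of the collagen genes, so the order of those chains is uncertain, while Col5a2 was above both with either length.

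The most common type V molecule contains α1 and α2 chains, with more α1 than α2. The ratio of Col5a1 to Col5a2 per kb was 0.801 ± 0.0245, and it stayed below 1 with either length and without correction. Col5a3 (chr9:20770050-20815117), whose α3 chain replaces another chain in some type V molecules, had 23.1, 24.5 and 24.2 CPM (23.9 ± 0.735), so that Col5a2 was 6.43 ± 0.183 times Col5a3 per kb. The type V chains therefore differed in level while each of them was steady across the libraries.

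The remaining fibrillar chains, most of them known from cartilage, were at the low end. Col11a1, which builds the thin fibrils of cartilage, had 2.96, 3.32 and 3.88 CPM (3.38 ± 0.463), and Col27a1, a fibrillar gene expressed in growing cartilage, had 3.42, 2.71 and 3.34 CPM (3.16 ± 0.389). Col11a2 had 24, 17 and 12 counts, or 1.39, 0.940 and 0.646 CPM, and straddled the detection level. Col2a1, the main cartilage collagen, had 2, 2 and 3 counts, and Col24a1 had 0, 1 and 1. For Col2a1 and Col24a1 a difference between libraries was not detectable at these counts.

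By summed CPM of its chains, type VI collagen was the most abundant after type I. Col6a2 (chr10:76595756-76623630) had 467, 449.6 and 469 CPM (462 ± 10.6) and Col6a1 (chr10:76708792-76726044) had 349, 323 and 359 CPM (344 ± 18.5). Col6a3 (chr1:90766860-90844001), the long chain with many von Willebrand factor A domains, had 73.9, 77.3 and 78.6 CPM (76.6 ± 2.44). All 3 were highest in replicate 3, and Col6a3 was the lowest of them in every library.

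Type VI molecules contain the α1, α2 and α3 chains in equal number. Per kb of merged exons, Col6a1 was at 78.5 ± 4.22, Col6a2 at 55.5 ± 1.27 and Col6a3 at 6.40 ± 0.204. Col6a1 was 12.3 ± 0.756 times and Col6a2 8.67 ± 0.374 times Col6a3, and per kb of the longest transcript the figures were 11.1 ± 0.682 and 12.4 ± 0.535. The excess over Col6a3 was thus present with both lengths, and without length correction the figures were 4.49 ± 0.277 and 6.03 ± 0.260. Whether reads cover the long Col6a3 transcript evenly cannot be told from gene counts, so the size of the excess is uncertain. The order of Col6a1 and Col6a2 changed with the length, with a ratio of 1.41 ± 0.0454 per kb of merged exons and 0.892 ± 0.0286 per kb of the longest transcript.

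The later members of the family, whose chains can stand in for α3, were near or at the floor. Col6a4 was at 0 throughout, and 3 counts summed over the libraries, the limit that a count of 0 leaves, equal 0.0556 CPM. Col6a5 had 2, 0 and 1 counts and Col6a6 had 3, 0 and 0. These genes lie next to each other on chromosome 9, 27823 and 27854 bases apart and all on the same strand. Col6a1 and Col6a2 are likewise in tandem on chromosome 10, 85161 bases apart, and both were high.

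**Figure D3:**
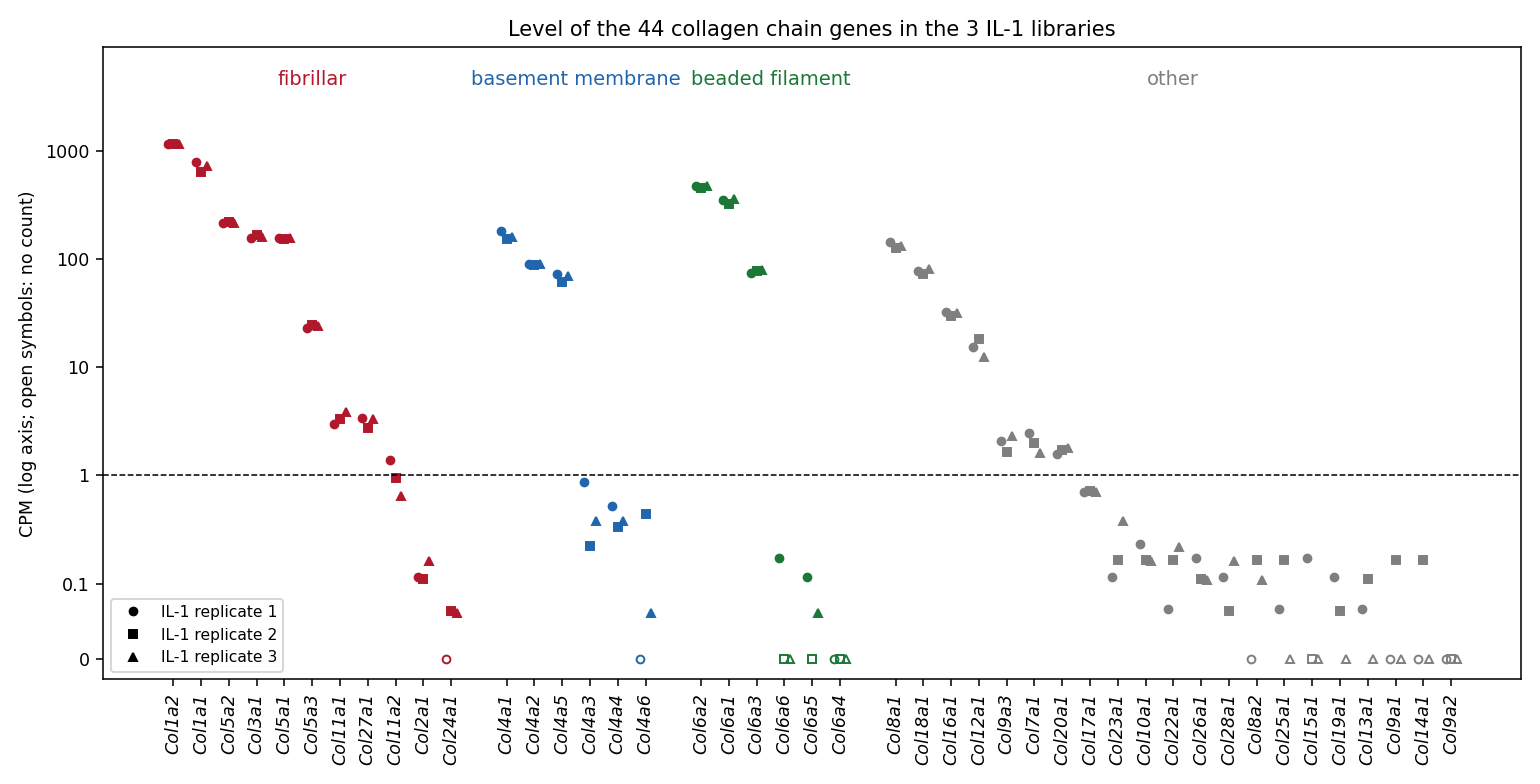
CPM (log axis) of each of the 44 collagen genes in IL-1 replicates 1 (circles), 2 (squares) and 3 (triangles), grouped by class and ordered by mean within it; open symbols on the bottom line are libraries with no count and the dashed line is 1 CPM. In each class the highest gene stands at 134 CPM (Col8a1) or more, and wide gaps lie below Col4a5 (67.8 CPM) and Col6a3 (76.6 CPM).

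Basement membrane collagen was represented by 3 of its 6 chains, close to the share of 51.1% among all protein-coding genes. Col4a1 (chr8:11198423-11312889) had 179, 153 and 160.0 CPM (164 ± 13.6), Col4a2 (chr8:11312805-11449287) had 90.5, 87.9 and 89.6 CPM (89.3 ± 1.34) and Col4a5 (chrX:141475370-141689236) had 72.1, 61.7 and 69.8 CPM (67.8 ± 5.46). The α1 and α2 chains form the type IV molecule found in nearly all basement membranes, with more α1 than α2. The ratio of Col4a1 to Col4a2 per kb was 1.75, 1.54 and 1.58 in replicates 1 to 3 (1.63 ± 0.112), and Col4a1 was higher in every library with both lengths and without correction. Col4a5 encodes a chain that partners with α3 and α4 in the kidney filter or with α6 elsewhere, and Col4a1 was at 2.18 ± 0.0975 times its level per kb.

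The genes of the partner chains of Col4a5 were near the floor. Col4a3 had 15, 4 and 7 counts, Col4a4 had 9, 6 and 7, and Col4a6 had 0, 8 and 1. Their means of 0.489 ± 0.338, 0.410 ± 0.0992 and 0.165 ± 0.241 CPM lay far below the 67.8 CPM of Col4a5, and none reached 1 CPM in any library.

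The 6 type IV genes lie as 3 head-to-head pairs, each transcribed in opposite directions from neighbouring starts. On chromosome 8 the starts of Col4a1 and Col4a2 annotated in GENCODE M21 overlap, at positions 11312826 and 11312805, and both genes were high. On chromosome 1 those of Col4a4 and Col4a3 are 127 bases apart, and both genes were below 1 CPM. On chromosome X those of Col4a6 and Col4a5 are 1309 bases apart, and Col4a5 was high while Col4a6 was near the floor. Both genes of a pair were thus on the same side of 1 CPM on chromosomes 1 and 8, and on opposite sides on X. By RefSeq ranges the gap within the pair is -85 bases on chromosome 8 and -114 bases on chromosome 1, where a negative gap is an overlap. In GENCODE M21 the exons of Col4a1 and Col4a2 share 22 bases, 0.295% and 0.332% of their exon length. The strand setting of the counting is not given in the sources used here, so reads in shared bases cannot be told apart. The same holds for Col9a3, which shares 234 exon bases (6.07%) with Tcfl5 on the opposite strand, and for Col4a3, which shares 563 (5.65%) with the noncoding gene C430014B12Rik.

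Col3a1 and Col5a2 are neighbours too, tail to tail on chromosome 1 with 24624 bases between them. Both were detected, with a ratio of Col3a1 to Col5a2 of 0.723 ± 0.0184 per kb. Col9a1 and Col19a1, tail to tail on the same chromosome and 4944 bases apart, had 0, 3 and 0 counts and 2, 1 and 0 counts.

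Among the remaining collagens 7 of 21 were detected, against 51.1% of all protein-coding genes. Network-forming Col8a1 (chr16:57624256-57754737), a chain of vessel walls and the cornea, was the highest at 144, 126 and 132 CPM (134 ± 8.87), while its partner Col8a2 had 0, 3 and 2 counts and Col10a1, a marker of hypertrophic cartilage, had 4, 3 and 3. Col18a1 (chr10:77052178-77166530), a basement membrane multiplexin whose end fragment is endostatin, had 76.7, 71.8 and 80.0 CPM (76.2 ± 4.14). Its relative Col15a1 had 3, 0 and 0 counts. In each of these families 1 member was thus well expressed and its relatives were near the floor.

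Of 9 fibril-associated genes 4 were detected, against 51.1% of all protein-coding genes. Col16a1 (chr4:130047817-130099277) had 32.2, 29.5 and 31.8 CPM (31.2 ± 1.46), and Col12a1 (chr9:79598987-79721141), which bridges type I fibrils, had 15.4, 18.1 and 12.4 CPM (15.3 ± 2.85). Col12a1 varied more than counting alone gives, with a spread of 18.6% of the mean against 6.04% from counting, and was highest in replicate 2. Col9a3 was at 2.02 ± 0.333 CPM and Col20a1 at 1.68 ± 0.109 CPM. Col9a3 is a cartilage chain, and its partner Col9a2 had no count in any library. Col14a1 had 0, 3 and 0 counts and Col22a1 had 1, 3 and 4.

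Col7a1, which forms the fibrils that anchor skin to its basement membrane, was just above the detection level at 2.43, 1.99 and 1.61 CPM (2.01 ± 0.410). None of the 4 transmembrane collagens was detected, against 51.1% of all protein-coding genes. Col17a1, a component of the hemidesmosomes of epithelia, was the highest of them with 12, 13 and 13 counts, just under 1 CPM in each library. Col23a1 had 12 counts over the 3 libraries, Col25a1 had 4 and Col13a1 had 3. Col26a1 had 7 counts in all and Col28a1 had 6.

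Within the family the libraries differed little. Over the 21 detected genes, the spread between libraries was 0.838% to 20.4% of the mean, with a median of 5.44%, against a median of 8.56% over all 11224 detected genes. Among genes at 50 CPM or more, the median was 3.81% over 13 collagen genes and 5.81% over 4206 protein-coding genes, whose quartiles were 3.59% and 8.70%. Replicate 1 was the highest library for 10 of the 21 collagen genes, against 45.7% of all detected genes. Replicate 2 was the highest for 4, against 27.1%, and replicate 3 for 7, against 27.3%. These counts rest on small differences between libraries: with TMM factors, which scale the libraries by their common genes, they were 6, 5 and 10 for replicates 1, 2 and 3, against 37.5%, 34.5% and 28.0% of all detected genes. The median log2 ratio of a library to the mean of the others, on log2(CPM + 0.5), was 0.03, -0.04 and 0.03 for the collagen genes in replicates 1 to 3, beside 0.05, -0.04 and 0.00 for all detected genes, and with TMM factors it was -0.01, 0.00 and 0.03 for the collagen genes. The 3 detected type VI genes were all highest in replicate 3 with either scaling. The 3 detected type IV genes were all highest in replicate 1 by library totals, but Col4a2 was highest in replicate 3 with TMM factors.

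**Figure D4:**
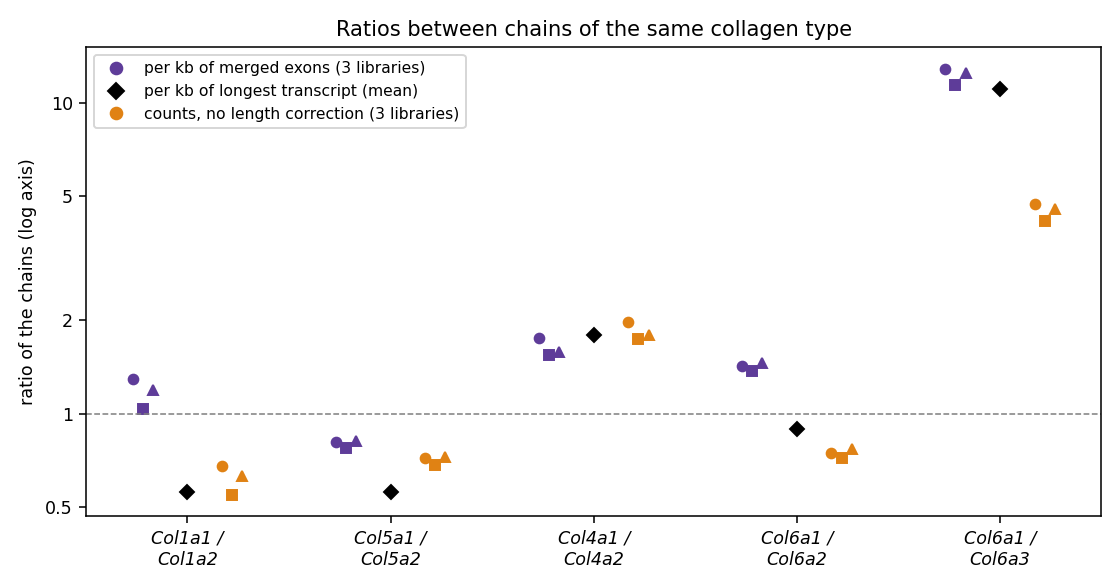
Ratio between chains of the same collagen type (log axis) per kb of merged exons (left, purple) and from counts without length correction (right, orange) in IL-1 replicates 1 (circles), 2 (squares) and 3 (triangles), with the mean per kb of the longest transcript as a black diamond. Col4a1 lies above Col4a2 and Col6a1 above Col6a3 on all scales, while Col1a1 to Col1a2 and Col6a1 to Col6a2 cross 1 with the length used.

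Most of the listed genes for the processing, binding and sensing of collagen were detected. Of these 52 genes, 39 were at 1 CPM or more in every library, against 51.1% of protein-coding genes. The list was chosen with earlier results of these data known, so its share cannot be set apart from that choice. Hydroxylases and sugar transferases modify the chains before they fold, and 14 of 15 were detected. P4hb, a subunit of prolyl 4-hydroxylase and a disulfide isomerase, was at 1082 ± 31.6 CPM, its catalytic partner P4ha1 at 457 ± 10.7 CPM and Crtap, of the prolyl 3-hydroxylation complex, at 189 ± 7.50 CPM. Colgalt2 was the exception, with 1, 2 and 1 counts, while its paralog Colgalt1, which adds galactose to hydroxylysine, was at 156 ± 17.5 CPM.

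Of 8 chaperone and export genes 7 were detected, against 51.1% of all protein-coding genes. Serpinh1, the collagen chaperone HSP47, had 468, 287 and 353 CPM in replicates 1 to 3 (369 ± 91.7). Fkbp10, a prolyl isomerase of the endoplasmic reticulum, was at 179 ± 15.3 CPM, and Sec24d, a subunit of the coat of the vesicles that carry procollagen, at 171 ± 8.80 CPM. Mia2 had no count. The spread of Serpinh1 was 24.8% of its mean.

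Propeptides are cut off outside the cell before fibrils form. For this step 5 of 7 genes were detected, against 51.1% of all protein-coding genes. Pcolce, which enhances the removal of the C-terminal propeptide, was at 971 ± 29.1 CPM, the C-proteinase gene Bmp1 at 89.3 ± 6.88 CPM and the N-proteinase gene Adamts14 at 28.7 ± 7.21 CPM. Tll1 had 26, 13 and 23 counts and fell short of 1 CPM in replicate 2, and Adamts3 had 3, 1 and 0. Among 5 cross-linking enzymes, Lox was at 371 ± 35.5 CPM, Loxl1 at 162 ± 16.6 CPM and Loxl3 at 87.3 ± 16.5 CPM. Of these 5 enzymes 4 were detected, against the same 51.1% of protein-coding genes. All 4 were highest in replicate 1 with either scaling, as were 22 of the 39 detected genes of the whole list by library totals, against 45.7% of all detected genes, and 21 with TMM factors, against 37.5%. Loxl2 had 11, 6 and 10 counts.

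Among the matrix proteins that bind fibrils, 4 of 7 genes were detected, against 51.1% of all protein-coding genes. The proteoglycan Bgn was at 1857 ± 95.5 CPM, Sparc, a collagen-binding glycoprotein, at 1484 ± 25.3 CPM and fibronectin, Fn1, at 1122 ± 76.0 CPM. Lum had 10, 21 and 2 counts, Tnxb 0, 4 and 3 and Fmod 4, 1 and 1, so the keratan sulfate proteoglycans Lum and Fmod were low while Dcn, which binds type I fibrils, was at 343 ± 29.5 CPM.

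Of 10 collagen receptors 5 were detected, close to the share of 51.1% among all protein-coding genes. The shared integrin subunit Itgb1 was at 1038 ± 44.1 CPM, the receptor kinase Ddr2, which binds fibrillar collagen, at 329 ± 10.5 CPM and its relative Ddr1 at 36.6 ± 4.33 CPM. Among the collagen-binding integrin α subunits, Itga11 alone was detected, at 4.09 ± 1.08 CPM. Itga10 had 12, 14 and 18 counts, Itga1 12, 2 and 8 and Itga2 3, 9 and 2. Lair1, found on leukocytes, and Gp6, found on platelets, had no count.

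**Figure D5:**
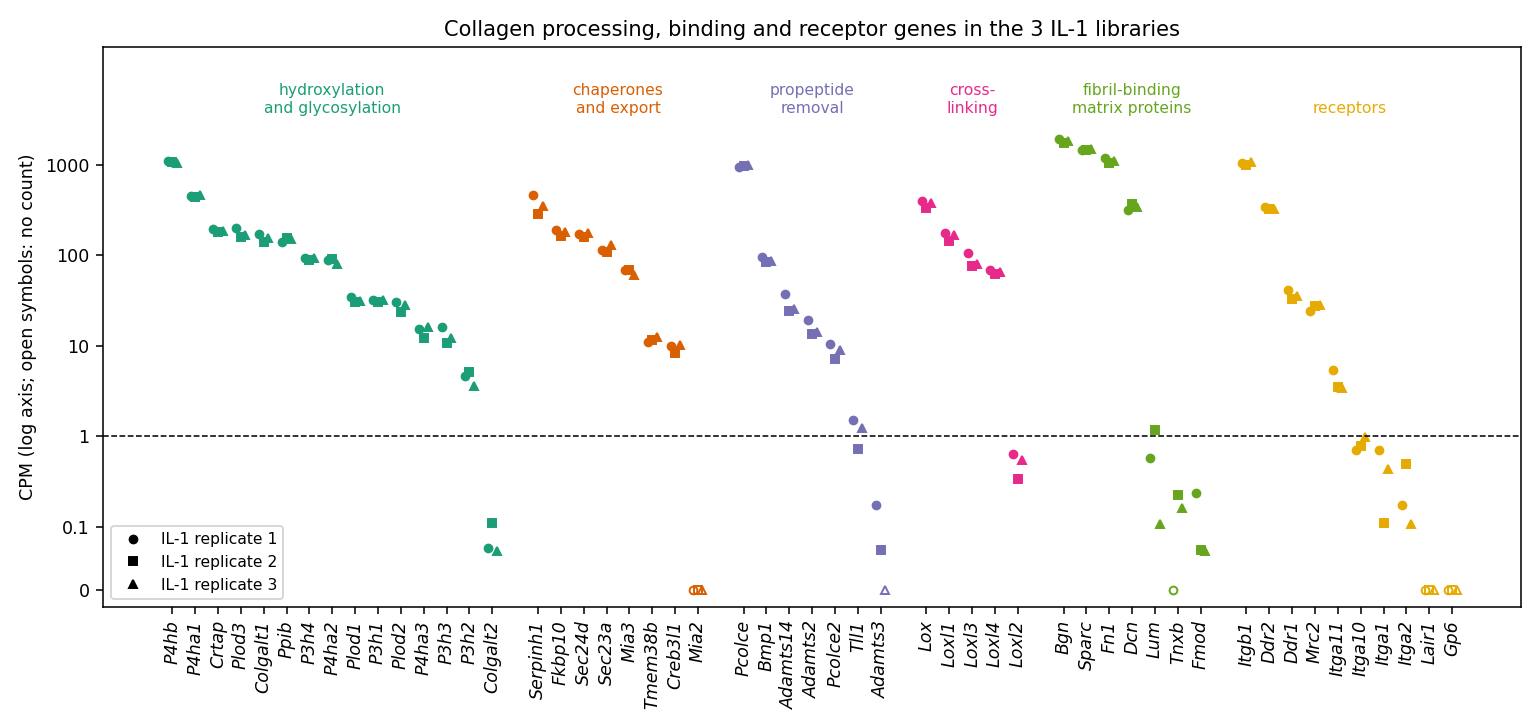
CPM (log axis) of 52 genes for the processing, binding and sensing of collagen in IL-1 replicates 1 (circles), 2 (squares) and 3 (triangles), grouped by role; open symbols on the bottom line are libraries with no count and the dashed line is 1 CPM. The highest gene of each role lies between 369 CPM (Serpinh1) and 1857 CPM (Bgn), and the 3 libraries of Serpinh1 stand apart at 468, 287 and 353 CPM.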

How the data were processed

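Raw counts per Entrez gene ID were used as deposited. CASAVA, STAR and featureCounts were run with genome build mm10, per the submitters' processing notes. Their versions and the annotation, strand and multi-mapping settings are not stated there. Per the labels' protocols, lysed cells were reverse transcribed without RNA extraction, with 10 cycles of pre-amplification and a tagmentation kit. No molecular identifiers are mentioned, so a limit from a count of 0 covers counting error alone. The 9 tables equal to IL-1 replicate 3 were left out; replicates 1 and 2 equalled it in 1.10% and 1.01% of genes (mean count 10 or more).

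CPM were computed from library totals. Symbols and positions came from RefSeq GRCm38.p6 (25275 of 27179 IDs matched), and exon and transcript lengths and coding sequence from GENCODE M21, for all 44 members and 97.5% of protein-coding genes. The coding exons are of the principal transcript with the longest coding sequence. With 1 group, no test between groups was made. Scaling factors from edgeR 4.0.16 in R 4.3.3, by TMM and by relative log expression, other detection minimums, other pseudocounts, other lengths and leaving out each library were tried as alternatives. Everything else was computed in Python 3.11.15 with pandas 2.3.3, numpy 2.4.6 and matplotlib 3.10.9. The calculations were tested on simulated data. Members, classes and lists were chosen with earlier results of these data known. All members are accounted for; of the list of 52 genes, the 3 highest of each role and those below 1 CPM are given. Colgalt1, Dcn, Itga11 and the detected markers of other cell types were named after their values were seen.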

Additional observations from a re-analysis of the deposited data

How the results depend on the processing

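No paired analysis was possible because a single group held data not copied from another sample. With TMM or relative log expression factors, and without any 1 library, the counts of detected genes of the family, of each class and of the list of 52 genes stayed within 1.5 times, and the summed CPM of each class within 1 SD. With a minimum of 2 CPM, 4 genes of the remaining class were detected in place of 7. With at least 1 count in each library as the only condition, 5 basement membrane genes and 13 of the remaining class were. The length used moved the 4 class shares and the 5 chain ratios tried by more than 1 SD. Per kb of the longest transcript, the fibrillar, basement membrane, beaded filament and remaining classes took 59.8%, 6.97%, 26.3% and 6.92% of the collagen level, and without length correction 62.3%, 8.26%, 22.6% and 6.78%. Per kb of the longest transcript the ratios were 0.558 (Col1a1 to Col1a2), 1.79 (Col4a1 to Col4a2), 0.892 (Col6a1 to Col6a2), 11.1 (Col6a1 to Col6a3) and 0.559 (Col5a1 to Col5a2). Without length correction they were 0.619, 1.84, 0.744, 4.49 and 0.709 in the same order. The first and the third of these pairs changed order. The median log2 ratios of the collagen genes between libraries changed sign for replicates 1 and 2 under the other factors, at -0.01 and 0.00 with TMM, which is less than the spread between genes. A mean of 3 libraries stays within 1 SD whichever library is left out, so that alternative tests little. Collagen genes short of the detection level rest on at most 53 counts over the 3 libraries, which limits the precision of their levels.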
